A study of Mus musculus with 8 samples.

Results

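The immature enterocytes with Gsdmc4 and Apol10a were 1534 of the 11525 crypt cells that passed the quality limits, and of 28750 barcodes deposited. A cell belonged to them when it had at least 1500 UMIs (unique molecular identifiers, each standing for 1 captured transcript), at least 200 genes, at most 30% mitochondrial UMIs and under 20% of UMIs from Defa genes, the defensins of Paneth cells. In addition, Gsdmc2, Gsdmc4 and Apol10a together had to reach 3 UMIs and 0.03% of the cell's UMIs. The 7 absorptive genes Fabp1, Fabp2, Apoa1, Apoa4, Apoc3, Rbp2 and Sis had to stay under 3%, and the 6 mitotic genes Top2a, Ube2c, Cdk1, Ccnb1, Cenpf and Birc5 under 0.15%. The measured values of these 16 genes chose the cells, so their levels below are a description.

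The cells came from single-cell RNA sequencing of small intestinal crypts of adult female mice on a C57BL/6 background, sorted for the epithelial surface protein EpCAM and for exclusion of DAPI. The group labelled WT was made of control mice carrying the enhancer at the H11 locus in front of a reporter, and the group labelled KO of mice homozygous for deletion of ieCtnnb1, an intestinal enhancer upstream of Ctnnb1. Ctnnb1 encodes beta-catenin, which carries the canonical Wnt signal to the nucleus and links cadherins to actin. The deletion was in the germline and therefore in every cell type. The mice of a genotype were pooled and the labels list 4 samples per group, but the values came as 1 matrix per group in which no barcode could be assigned to a labelled sample. Each group was thus 1 sample. No test between groups was possible, and every interval given is a 95% interval that covers counting error only.

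Enterocytes arise from transit-amplifying cells of the crypt, stop dividing near the crypt neck and mature while they move up the villus, where they first make antimicrobial proteins and later digestive enzymes and lipid carriers. Gasdermins are proteins whose N-terminal part can form membrane pores after cleavage, and the mouse Gsdmc genes form a cluster of close copies on chromosome 15. Apol10a belongs to the apolipoprotein L family, Car4 is a membrane-bound carbonic anhydrase, and Krt19 is a keratin of simple epithelia.

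The start of the coding sequence shows how alike the 3 detected Gsdmc genes are. The first 120 coding bases are given from GENCODE M21 (GRCm38, chromosome 15, minus strand), 5' to 3', with capitals where a base differs from Gsdmc4.
Gsdmc4: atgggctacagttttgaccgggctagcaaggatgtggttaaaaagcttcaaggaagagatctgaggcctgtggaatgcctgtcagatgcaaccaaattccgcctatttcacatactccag
Gsdmc2: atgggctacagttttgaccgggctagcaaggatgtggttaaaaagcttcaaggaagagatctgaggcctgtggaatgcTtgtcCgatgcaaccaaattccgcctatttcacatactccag
Gsdmc3: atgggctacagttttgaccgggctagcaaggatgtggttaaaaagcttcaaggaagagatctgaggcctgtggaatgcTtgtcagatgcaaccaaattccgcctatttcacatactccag
Gsdmc2 differed from Gsdmc4 at 2 of these bases and Gsdmc3 at 1. Of all stretches of 50 bases in the coding sequence, 38.2% of those of Gsdmc4 also occurred in Gsdmc2. The libraries read the 3' end of transcripts. In the last 500 bases of the transcript, 5.10% of the stretches of Gsdmc4 occurred in Gsdmc2, but 37.9% of those of Gsdmc2 occurred in Gsdmc3. Reads from such stretches of Gsdmc2 and Gsdmc3 could thus not be told apart, and their separate values are uncertain, whereas Gsdmc4 was largely distinct at its 3' end. How many reads this touched was not measured.

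The matrix labelled WT held 978 of these cells, 14.3% (13.5 to 15.1, Clopper-Pearson) of 6847 cells that passed the quality limits, and the matrix labelled KO held 556, 11.9% (11 to 12.8) of 4678. The log2 ratio of the shares was -0.27 (-0.41 to -0.12). As a share of all barcodes deposited the values were 6.12% and 4.36%. The denominators differed in composition, because the Defa limit alone removed cells down to 6847 from 10588 in WT and down to 4678 from 5881 in KO. The cells of KO also had greater depth in UMIs per cell, with a median of 15188 UMIs and 3178 genes against 7863 UMIs and 2469 genes in WT. With every cell thinned to 1500 UMIs before the limits were applied, 199 WT cells (2.91%) and 40 KO cells (0.855%) still met the rule. Among cells of at least 6000 UMIs thinned to that number, these were 585 of 3930 (14.9%) and 363 of 3858 (9.41%). The KO share was the lower one in each of these counts, but its distance from WT depended on how depth was treated. Each count also used Apol10a, whose level was lower in KO. Without thinning, Apol10a UMIs alone met the limits in 807 of 978 WT and 245 of 556 KO members. Gsdmc2 and Gsdmc4 UMIs alone met them in 275 WT and 234 KO members. Of the 6847 and 4678 cells, that was the larger share in KO, but the count needs 3 UMIs and the KO cells were deeper. Whether cells of this state were rarer in KO, apart from the level of Apol10a, was not tested.

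Many cells lay close to the limits. The nearest cells inside and outside the trio limit of 0.03% had 0.03002% and 0.02986% in WT and 0.03006% and 0.02998% in KO. Within 10% of that limit lay 26 members and 18 other cells of WT, and 65 members and 68 other cells of KO. Exactly 3 UMIs of the trio were found in 155 WT members and 41 KO members. The members are therefore a range set by limits and not a separate type. Median mitochondrial shares of the members were 8.43% in WT and 6.79% in KO, and 57 barcodes occurred in both matrices, of which none was a member in both.

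The label was checked against its 5 markers, which were all detected in both matrices. Gsdmc4 reached 186 CPM (177 to 195; UMIs per 1000000 UMIs of the cells summed) in WT members and 213 (204 to 223) in KO members. In the mitotic cells, which had at least 0.15% of UMIs from the mitotic genes, it was at 41.8 and 40.5, and in the absorptive-high cells, which had at least 3% from the absorptive genes, at 8.08 and 10.7. The rule chose the members by Gsdmc4, Gsdmc2 and Apol10a, so these values describe them and are no check. Gsdmc2 was at 97.8 and 97.5 in members, 23.9 and 18.2 in mitotic cells and 4.62 and 4.42 in absorptive-high cells. Gsdmc3, which the rule did not use but which shares 3' sequence with Gsdmc2, showed the same order with 36.0 and 32.8 in members, 10.1 and 5.51 in mitotic cells and 1.15 and 1.61 in absorptive-high cells. Gsdmc itself had no UMI in members, and a count of 0 allows up to 0.365 (WT) and 0.337 CPM (KO).

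Apol10a did not follow this order. It was at 659 CPM in WT members and 283 in KO members, and still at 453 and 220 in the absorptive-high cells, against 103 and 39.9 in mitotic cells and 20.7 and 16.8 in cells with the stem cell genes Lgr5, Ascl2 and Smoc2. Car4 and Krt19 were not used by the rule, and the check of the label rests on them. Car4 was at 191 (WT) and 280 (KO) in members, at 172 and 177 in absorptive-high cells and at 47.6 and 87.6 in mitotic cells. Krt19 was at 2993 and 4282 in members, at 1007 and 1064 in absorptive-high cells and at 1397 and 1989 in mitotic cells. Krt19 was thus highest in members, whereas Car4 in WT members was close to its level in absorptive-high cells. Of 11 tested genes published for immature enterocytes, Gsdmc4 included, 3 were higher in members than in absorptive-high cells of both matrices and none lower. Against mitotic cells 4 were higher and 1 lower. Over all genes 10.7% and 4.47% were higher in these 2 comparisons. For the level of free RNA, tuft-marker cells (86 WT, 45 KO), which should lack the gasdermins, were thinned like the others to 1500 UMIs. This class was not kept apart from the members. It held 5 WT and 4 KO members, which were chosen by the trio, so its gasdermin values are not a level of free RNA alone. A Gsdmc4 UMI was then seen in 1.16% of WT and 4.44% of KO tuft-marker cells (unthinned 2.33% and 13.3%) against 18.3% and 26.3% of members (unthinned 49.8% and 79.5%), whose share the rule fixed. The level of Gsdmc4 in tuft-marker cells was 3.86 CPM (0.467 to 13.9, 2 UMIs) in WT and 73.4 (49.1 to 105, 29 UMIs) in KO. The tuft-marker cells had median depths of 4336 and 6288 UMIs, against 7863 and 15188 in members.

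**Figure D1:**
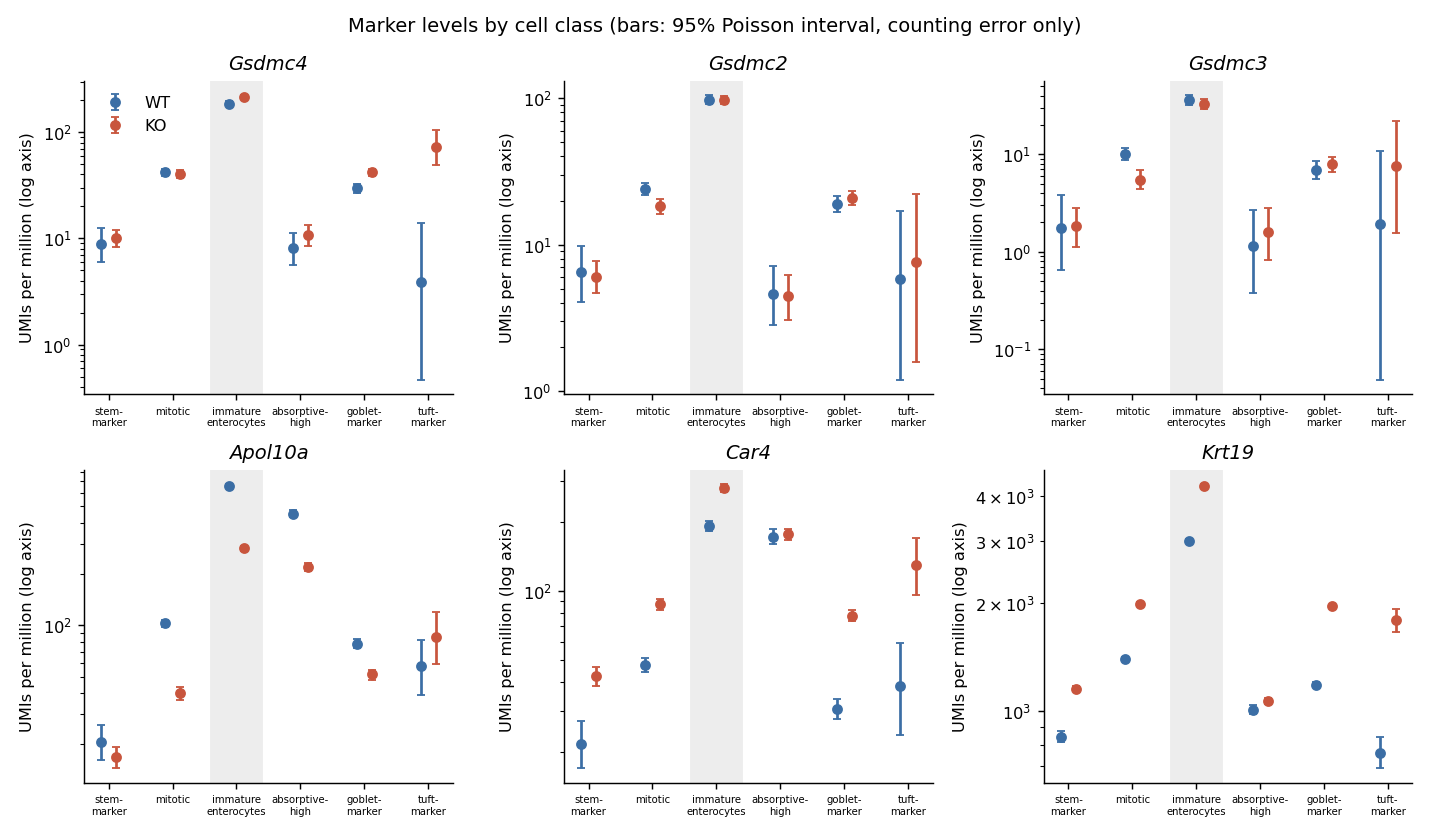
CPM (log axis) of the markers and of Gsdmc3 in 6 classes of cells from the WT (blue) and KO (red) matrices, with 95% Poisson intervals as bars. The 3 gasdermin genes were highest in the immature enterocytes (shaded), while Apol10a and Car4 stayed high in absorptive-high cells.

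The promoter of Apol10a is shown because its level differed most between the genotypes among the 5 markers. RefSeq lists it at chr15:77476797-77477096 (GRCm38.p6, plus strand), from 250 bases before to 50 bases after the start of the gene. It is printed 5' to 3' with the only motif match in capitals.
Apol10a promoter: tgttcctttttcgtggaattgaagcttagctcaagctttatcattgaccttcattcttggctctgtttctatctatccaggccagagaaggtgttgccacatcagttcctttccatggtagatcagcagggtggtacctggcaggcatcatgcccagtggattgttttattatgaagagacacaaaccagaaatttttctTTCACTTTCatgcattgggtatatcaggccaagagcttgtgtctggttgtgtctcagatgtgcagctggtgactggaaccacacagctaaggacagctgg
Both strands were searched for 5 motifs. CTTTGA stands for the TCF/LEF factors that work with beta-catenin, and 16% of 32851 promoters of the same length hold it. The others were TTTATG for CDX factors, which 11.9% hold, and AGATAA for GATA factors, which 11.2% hold. The HNF4 letters CAAAGTCCA occur in 0.475% of promoters. The match in the Apol10a promoter was to GAAANNGAA, the core of an interferon-stimulated response element, which 8.56% of promoters hold. The promoters of Car4 and Gsdmc3 held none of the 5 motifs.

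The markers differed in where along the absorptive programme they were highest. Cells under the mitotic limit that met no goblet, tuft or enteroendocrine limit were placed by their absorptive share, whether or not they were members. These were 3225 of 4946 WT cells and 3025 of 3898 KO cells under the mitotic limit, and they held 840 WT and 475 KO members. In WT, Gsdmc4 was at 86.9 CPM in 1577 cells with a share under 0.25%, at 113 between 0.25% and 0.5%, at 78.2 up to 1%, at 52.9 up to 2% and at 9.45 up to 3%. In KO the same steps gave 64.8, 92.1, 72.7, 37.9 and 26.2. Gsdmc4 thus had its highest level at 0.25% to 0.5% in both matrices and had fallen to 2.72 (WT) and 7.13 (KO) by a share of 6% to 12%. Apol10a instead rose from 189 to 645 CPM between the first and the third step in WT and was still at 444 between 6% and 12%. In KO it rose from 63.6 to 196 and was at 227 in that last step. Krt19 was highest at 0.25% to 0.5% in WT (2982) and at 0.5% to 1% in KO (3595) and had dropped to 634 and 1007 between 6% and 12%, whereas Krt20, the keratin of mature enterocytes, climbed from 95.9 to 688 in WT and from 89.9 to 1193 in KO. Anpep, the brush border aminopeptidase N, climbed in the same way, from 51.0 to 949 in WT and from 29.2 to 827 in KO. These levels have no independent support where a gene belongs to the rule.

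**Figure D2:**
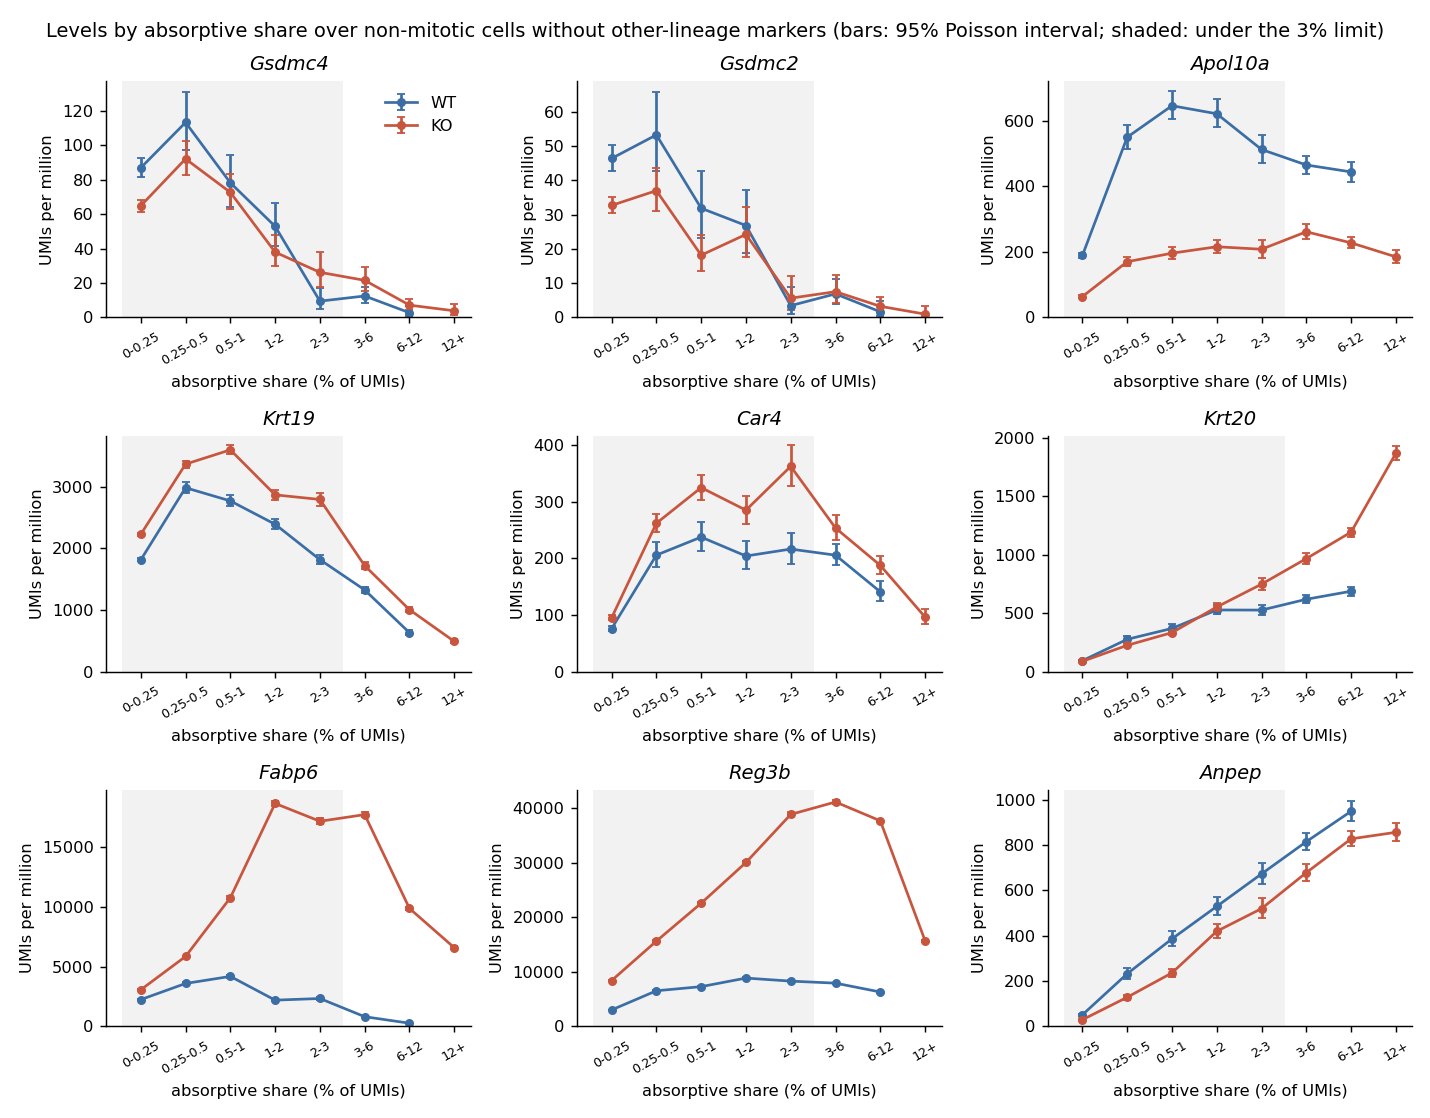
CPM of 9 genes over cells under the mitotic limit that met no goblet, tuft or enteroendocrine limit, grouped by the share of UMIs from the 7 absorptive genes, for WT (blue) and KO (red), with 95% Poisson intervals. The WT group above 12% held 9 cells and is not drawn. Gsdmc4, Gsdmc2 and Krt19 were highest at low shares, WT Apol10a declined from 645 at 0.5% to 1% to 444 at 6% to 12%, and Krt20 and Anpep were highest at high shares.

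Members themselves spanned this path. Of the WT members 611 (62.5%) had an absorptive share under 0.5%, 216 (22.1%) between 0.5% and 1.5%, and 151 (15.4%) up to 3%. In KO these were 409 (73.6%), 100 (18%) and 47 (8.45%), so a larger share of the KO members lay at the early end. The trio and the absorptive share both belong to the rule, so these shares are a description. Of all cells placed at a share of 1% to 2%, 54.3% of WT and 27.5% of KO cells met the trio limits. Under 0.25% these were 22.8% and 17.0%. The trio was also carried unevenly. A UMI of Gsdmc2 or Gsdmc4 together with Apol10a was found in 522 WT (53.4%) and 439 KO members (79.0%). Apol10a alone qualified 426 WT members (43.6%) but 84 KO members (15.1%), and 30 and 33 carried a gasdermin without Apol10a. Members with Apol10a alone had median absorptive shares of 0.818% and 0.963%, against 0.157% and 0.214% in those with both.

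Members that qualified by Apol10a without either gasdermin were compared with the 275 WT and 234 KO members whose gasdermin UMIs alone met the limits. Anpep was at 439 (WT) and 476 (KO) CPM in the first and at 124 and 77.5 in the second. Alpi, the intestinal alkaline phosphatase, was at 133 and 91.5 against 22.7 and 20.3, and Slc10a2, the apical sodium-dependent bile acid transporter, at 25.3 and 119 against 2.44 and 6.18. The cell cycle gene Ccnd1 went the other way, with 76.6 and 67.5 against 295 and 221. Anpep, Alpi and Slc10a2 thus had higher levels in the members with Apol10a alone in both matrices, although the groups were split by the rule's own genes.

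Members were next set beside the mitotic cells of the same matrix. Of 8689 genes tested, 4.47% were at least 2-fold higher in members of both matrices with intervals clear of 0, and 8.67% were lower. Since the rule chose the cells by their counts, these values describe the cells. The ileal bile acid gene Fabp6 was among those with the largest difference, at 4650 (WT) and 8675 (KO) CPM in members and at 249 and 494 in mitotic cells. Slc51a and Slc51b, the basolateral bile acid exporter subunits, had log2 ratios of 3.17 and 3.88 in WT and of 3.03 and 3.85 in KO. Among 6 bile acid genes tested 5 were higher and none lower. The metalloproteinase gene Mep1b (3.60 in WT, 3.25 in KO), Anpep (3.42 and 2.96), the peptidase gene Dpep1 (3.53 and 3.11) and the cytokine gene Il18 (3.34 and 3.18) were also high, and 12 of 15 brush border hydrolases were higher, with a median of 2.55 in WT and 2.41 in KO. Of 19 antimicrobial and barrier genes 10 were higher and none lower, with medians of 1.11 and 1.09.

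Lower in members than in mitotic cells were genes of cell division that the rule did not name. The spindle genes Prc1 (-3.52 in WT, -3.49 in KO) and Nusap1 (-3.60 and -3.47), the mitotic kinases Plk1 (-3.08 and -3.05) and Aurkb (-3.32 and -3.05) and several histone genes were lowest, and so was the crypt base gene Olfm4 (-3.25 and -3.31). All 20 genes of the G2/M list outside the rule, 15 of 18 stem cell genes and 12 of 15 Wnt targets were lower, the last with medians of -1.38 and -1.52. Against the stem-marker cells 11 of 13 Wnt targets were lower, where over all genes 7.55% were higher and 7.34% lower. Those cells were chosen by Lgr5, Ascl2 and Smoc2, which fixed this in part.

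Against the absorptive-high cells, 10.7% of 7080 genes were higher in members of both matrices and 5.01% lower. The cyclin genes Ccnd1 and Ccnd2 were still present in members, with Ccnd1 at 191 (WT) and 179 (KO) CPM against 12.7 and 21.8, and Ccnd2 at 402 and 374 against 42.0 and 63.8. Fgfbp1, a carrier of fibroblast growth factors, was at 61.9 and 102 against 5.08 and 12.3, and Rbp7, a retinol binding protein, at 97.1 and 181 against 9.93 and 24.9. Sst, the somatostatin hormone, headed this order, but 99.4% of its UMIs in members came from 5 cells in each matrix. Lowest in members were the detoxifying cytochromes Cyp3a11 (4.26 and 1.57 against 143 and 162) and Cyp2b10 (6.45 and 1.24 against 191 and 111), and the antimicrobial peptide Leap2 (9.49 and 5.84 against 248 and 304). Of 16 hydrolases 11, and 15 of 18 lipid handling genes and 12 of 16 sugar and amino acid transport genes were lower in members.

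KO and WT members were then compared gene by gene. Of 8218 genes with at least 100 UMIs over both groups, 39 (0.475%) were at least 2-fold higher in KO with an interval clear of 0 and 1397 (17%) were lower. Over these genes the log2 ratio had a median of -0.34. Centred on that median, the 2-fold counts became 289 higher and 490 lower. The ratio went with gene length. In the shortest quartile of summed exon length the median was 0.24, and in the following quartiles it was -0.21, -0.54 and -0.89. The share of genes at least 2-fold lower was 2.53%, 7.75%, 17.1% and 40.7% in the same order. The absorptive-high cells (0.14, -0.22, -0.54 and -0.86) and the mitotic cells (0.26, -0.18, -0.53 and -0.87) gave nearly the same medians. Its part in the results below was not tested. Each log2 ratio should be read against these medians.

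**Figure D3:**
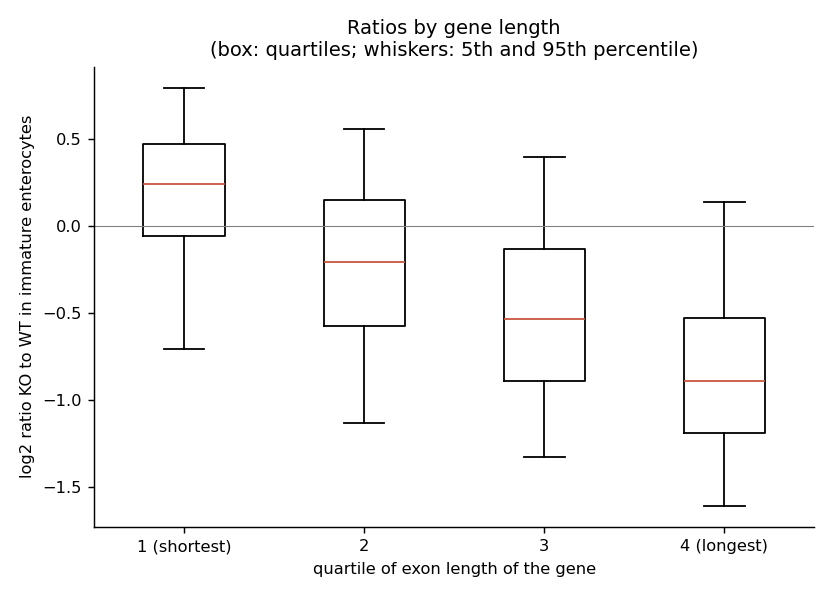
Log2 ratio KO to WT in immature enterocytes over the genes of each quartile of summed exon length, with boxes at the quartiles and whiskers at the 5th and 95th percentile. The median fell from 0.24 in the shortest to -0.89 in the longest genes.

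Ctnnb1, the gene next to the deleted enhancer, was detected in 795 of the WT and 461 of the KO members. Its level was 242 CPM (231 to 253) in WT and 132 (124 to 140) in KO, a log2 ratio of -0.88 (-0.98 to -0.77). After subtraction of the median of all genes this was -0.54, and against its length quartile -0.34. In each of the absorptive steps of the members the ratio was negative, at -0.81, -1.05 and -1.21, and it was -0.70 in absorptive-high, -0.74 in mitotic and -0.73 in stem-marker cells. The lower Ctnnb1 level was thus seen in members at each step and in the cells before and after them. These ratios by step and class had no median subtracted. The median of the length quartile of Ctnnb1 was -0.54 in absorptive-high and -0.53 in mitotic cells.

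Genes of the Wnt pathway were mostly below the median too. Over all genes 17% were called lower and 0.475% higher. Of 8 Wnt targets tested, 4 were called lower and none higher, with a median of -0.80. These were Ephb2, a guidance receptor of crypt cells (28.2 to 10.7 CPM, log2 -1.40), Lbh (-1.28), Axin2, a negative regulator of the pathway (-1.26), and Rnf43, a ubiquitin ligase that removes Wnt receptors (-1.12). Of 13 genes of the beta-catenin and adherens junction list 6 were lower, with a median of -0.89, among them Apc (-1.44), Ctnnd1 (-1.34), Cdh1 (-1.20) and Ctnna1 (-1.12). This median was close to the -0.88 and -0.90 of the same list in absorptive-high and mitotic cells. Relative to all genes the medians of both lists were -0.47 and -0.55, and relative to genes of like length -0.40 and -0.34. The Wnt target median was nearer that of all genes under other limits, at -0.49 with the mitochondrial limit at 15% and -0.43 with the trio limit at 0.06%, where the medians of all genes were -0.34 and -0.30.

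Among the defining genes the gasdermins differed little in members, which Gsdmc2 and Gsdmc4 themselves helped to choose. Among cells placed by absorptive share, members or not, the gasdermins were lower in KO at the first step. Under 0.25%, Gsdmc4 was at 86.9 (WT) and 64.8 (KO) CPM and Gsdmc2 at 46.4 and 32.7. Between 2% and 3%, Gsdmc4 was higher in KO (9.45 and 26.2). The part of the selection in the member ratios was not tested. Gsdmc4 had a log2 ratio of 0.20 (0.10 to 0.30), which was -0.34 over members with a Gsdmc2 or Gsdmc4 UMI, Gsdmc2 of -0.00 (-0.14 to 0.14) and Gsdmc3 of -0.13 (-0.37 to 0.10), and none of the 5 gasdermin genes tested was called. Relative to all genes the median of the family was 0.33, and relative to genes of like length -0.24. Apol10a was lower in KO, from 659 to 283 CPM, a log2 ratio of -1.22 (-1.29 to -1.15). Its ratio was -1.22, -1.13 and -0.95 in the 3 steps of the members, -1.04 in absorptive-high and -1.37 in mitotic cells. The only other tested gene of its family, Apol7a, was also called lower (22.0 to 10.8). Krt19 (0.52) and Car4 (0.55) were higher in KO by less than the 2-fold limit, and 4 of the 5 keratins tested had positive ratios. Apol10a is 1 of the 3 genes that chose the members, and its UMIs alone met the limits in 82.5% of WT but 44.1% of KO members.

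The genes with the highest ratio in KO members included 2 kinds. The secreted lectins Reg3b and Reg3g, which act on bacteria, were at 8280 and 3765 CPM in WT members and at 27229 and 12146 in KO members, with log2 ratios of 1.72 and 1.69. The ratio of Reg3b was 1.75, 1.71 and 1.94 in the 3 absorptive steps. Its higher level in KO was not particular to the members. Among cells placed at an absorptive share of 6% to 12% it was at 6304 (WT) and 37720 (KO) CPM. With cells thinned to 1500 UMIs, a Reg3b UMI was seen in 43.2% of WT and 69.7% of KO mitotic cells. In tuft-marker cells these shares were 27.9% and 73.3%. The part of free RNA in this was not tested. Duoxa2, which brings the hydrogen peroxide producing oxidase Duox2 to the membrane, went from 25.9 to 62.9, and the bacterial cell wall binding protein Pglyrp1 from 283 to 594. Tmigd1, a brush border adhesion protein, went from 21.5 to 50.8 (1.24), but its ratio was 0.18 (-0.19 to 0.55) with the trio limit at 0.06%, and 36.3% of its UMIs in KO members came from 5 cells. Mrps28, Mrpl17, Alyref and Nudt14 had ratios between 1.07 and 1.11. The other kind rested on few cells. Of the Gip UMIs of KO members 95.8% came from 5 cells, and 1 cell held 952. For Cck this share was 92.2% and for the acute phase gene Saa1 73.3%. Gip and Cck are hormones of enteroendocrine cells, and 7 WT and 6 KO members met the limit of 0.5% of UMIs for enteroendocrine genes. Without the members that met a goblet, tuft or enteroendocrine limit the ratio of Gip was -0.32.

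Of the 19 antimicrobial and barrier genes tested, 4 (21.1%) were higher in KO members and 5 (26.3%) lower. Over all genes 0.475% were higher and 17% lower. The median of the list was -0.46, against -0.34 over all genes. Reg4 was lower (154 to 29.4, log2 -2.39), as were Ang4 (860 to 345), Reg1 (729 to 326), the immunoglobulin transporter Pigr (2822 to 1344) and Retnlb (14.1 to 0.562). Reg4, Ang4 and Retnlb are also made by Paneth, goblet or enteroendocrine cells. In WT members 5 cells held 46.9% of the Reg4 and 62.9% of the Retnlb UMIs. The summed level of 8 Paneth markers was 27268 CPM in WT and 14386 in KO members, and in mitotic cells 27205 and 14971. The list thus held genes of both directions, with its most abundant genes Reg3b and Reg3g up. Its share of lower genes was near that of all genes. Paneth markers were lower in KO in members and in mitotic cells.

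Genes of absorption had negative medians, which were nearer 0 at matched depth. Of 15 brush border hydrolases 6 were called lower and none higher, with a median of -0.66. The neutral endopeptidase Mme went from 63.8 to 9.21 CPM (-2.79), lactase Lct from 39.3 to 11.7 (-1.75), dipeptidyl peptidase Dpp4 from 132 to 44.6 (-1.56) and Alpi from 74.1 to 32.8 (-1.18). Dpp4 was lower in each absorptive step, with ratios of -1.61, -1.33 and -0.91. In the absorptive-high cells the median of the list was 0.00. Among members with 6000 to 14000 UMIs it was 0.01, so this result did not hold at matched depth. Of 16 lipid handling genes 4 (25%) were lower, near the 17% of all genes, with a median of -0.63, led by Apob, the scaffold of chylomicrons (370 to 90.4, -2.03). Of 15 sugar and amino acid transporters 5 were lower (median -0.56), with Slc2a2 (-1.57) and Slc15a1 (-1.5) first. Of 20 brush border structure genes 5 (25%) were lower and 1, Tmigd1, higher (median -0.77). Among members with 6000 to 14000 UMIs the medians of these lists were -0.18 for lipid handling, -0.18 for transporters and -0.39 for structure, against -0.36 over all genes.

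Of the 28 enterocyte transcription factors tested 12 (42.9%) were lower and none higher, where 17% of all genes were lower. Onecut2 (108 to 36.6), Hnf4g (171 to 64.4) and Maf (192 to 85.3) were among them. The median of the list was -0.90 against -0.34 over all genes, and relative to genes of like length -0.50. In absorptive-high and mitotic cells the list had medians of -0.62 and -0.70, so its lower level was not particular to the members. Of 13 immediate early genes, which stimulation or tissue handling can raise within minutes, 9 were lower, with a median of -1.39, including Fosb (-2.46), Jun (168 to 32.8, -2.35), Egr1 (-2.22) and Dusp1 (-1.65). Their medians in absorptive-high and mitotic cells were -1.18 and -1.23, and of the 12 heat shock and dissociation stress genes 1 was higher and none lower. The immediate early list had the lowest median of the lists with at least 5 tested genes, and it moved in a like way in cells of all 3 classes. Among the 12 genes named for the lowest ratios, AY036118 (1066 to 34.2, -4.96) and Lars2 (230 to 29.3, -2.97) came first, and AY036118 stood at -4.17 and -5.02 in absorptive-high and mitotic cells. AY036118 is known to collect reads of ribosomal RNA.

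Among the lists that stood above the median of all genes without a called gene were 4 with positive medians of their own. The 6 ileal bile acid genes had a median of 0.46, with Fabp6 at 0.90, Slc51b at 0.71 and Slc51a at 0.49. Within the absorptive steps of the members Fabp6 gave 0.57, 1.58 and 2.27, since it fell along the path in WT members (5361, 3656 and 2392 CPM) and rose in KO members (7948, 10913 and 11532). In absorptive-high cells the median of the list was 1.6. The 21 interferon-responsive genes had a median of 0.36, and the 5 keratins one of 0.42. The 4 carbonic anhydrases had a median of 0.19, which was -0.75 with genes of at least 1 UMI admitted. The sets of MHC class II (7 genes, 0.05) and S phase genes (18 genes, -0.29) held 1 and no lower gene.

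**Figure D4:**
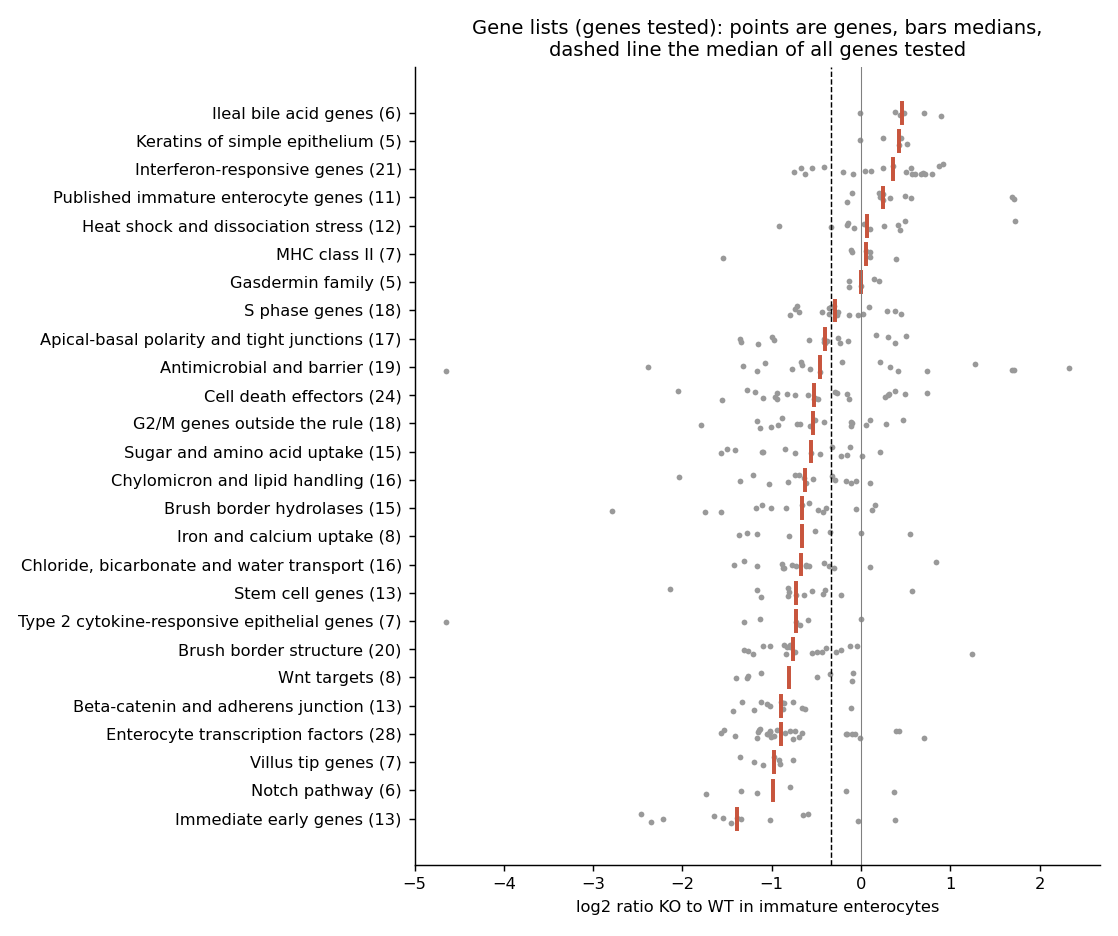
Log2 ratio KO to WT in immature enterocytes for the genes of each list with at least 5 tested genes (points) and the list median (bars), with the median of all tested genes as a dashed line. Immediate early genes were lowest at -1.39 and ileal bile acid genes highest at 0.46.

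**Figure D5:**
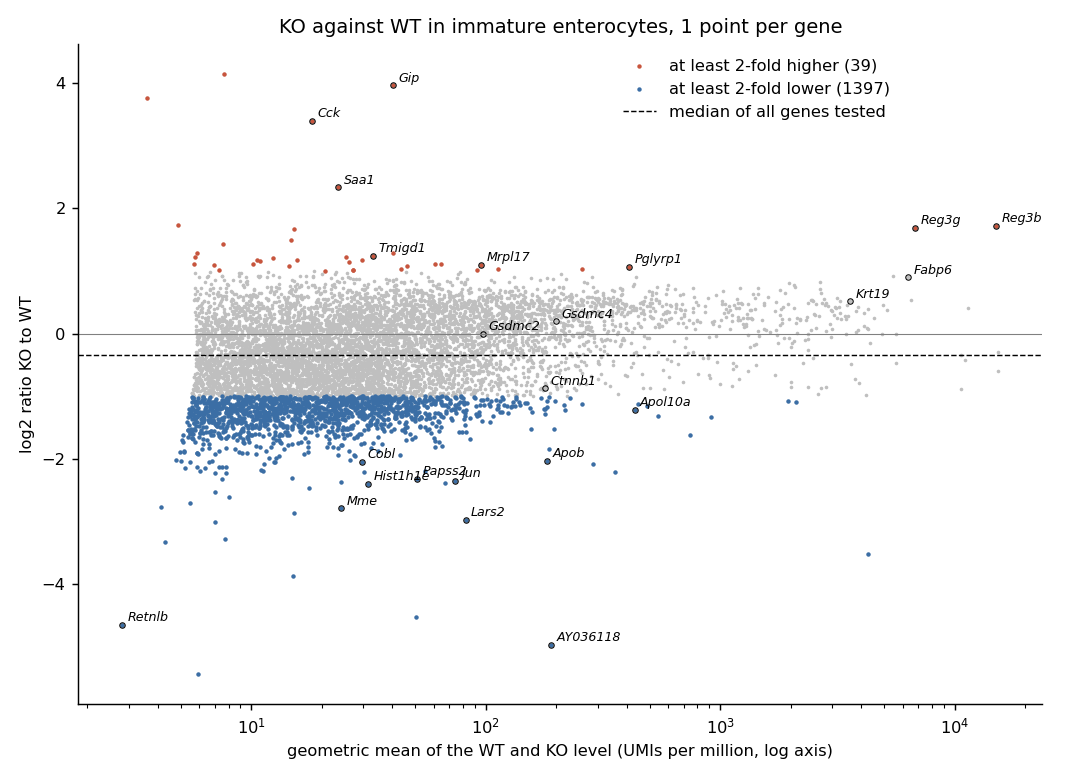
Log2 ratio KO to WT against the mean level of each of 8218 genes in immature enterocytes, with genes at least 2-fold higher in red and lower in blue. Reg3b and Reg3g stood at ratios of 1.72 and 1.69 among the most abundant genes, and Ctnnb1 lay at -0.88, below the median of -0.34.

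Markers of other cells were counted in the members. The goblet limit of 2% of UMIs from goblet genes was met by 126 WT (12.9%) and 71 KO members (12.8%), and the tuft limits by 5 and 4. Summed immune markers stood at 0.973 and 0.562 CPM, stromal or endothelial markers at 1.83 and 2.47 and erythroid markers at 0.122 and 0, with 0.337 CPM as the limit a count of 0 allows. The defining immune, stromal and erythroid markers were thus at or near 0 in both groups. RNA of goblet and Paneth cells was instead found in nearly all members. The goblet gene Spink4 and the Paneth gene Lyz1 had a UMI in 100% of WT and KO members, and the goblet gene Tff3 in 97.1% and 95.7%. Enteroendocrine RNA was present in some members, with a Chga UMI in 16.8% of WT and 30.4% of KO members.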

How the data were processed

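The deposited matrices held raw counts of UMIs per gene and barcode, which the authors had made with Cell Ranger. The file headers name version 4.0.0 and the submitters' processing notes version 2.1.1 and build mm10. The library kit was 10x Genomics 3' v2, and per the methods the chips had v2 or v3 chemistry, with no assignment to a library. Raw counts as deposited were used without normalization. Barcodes were filtered and chosen by the limits given at the start of the report, and UMIs were summed over the cells of a class and group and divided by all their UMIs (CPM). The WT members held 8219773 UMIs and the KO members 8901239. With 1 matrix per group no test was made. Ratios carry exact conditional binomial intervals, levels Poisson intervals, shares Clopper-Pearson intervals and the ratio of shares a Katz interval, all at 95% and for counting error only. A gene was tested for size with at least 100 UMIs over both groups, and called when it differed at least 2-fold with an interval clear of 0. Against other classes this had to hold in both matrices.

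Named genes were the 12 with the highest and the 12 with the lowest KO to WT ratio at 50 CPM or more in 1 group (Gm and rule genes left out), the 10 and 10 most different from each comparison class, the 4 largest absolute ratios of each list, and all rule genes and markers. Others were chosen after their values were seen. The members and the gene lists were chosen with earlier results of these data known. Scrublet in scanpy 1.11.5 called 1 of 13095 WT and 0 of 8658 KO barcodes and thus had not worked, so doublets stayed in, and an alternative left out the top 10% of scores. Exon lengths and positions came from GENCODE M21, which held 27645 of 27998 gene identifiers, and promoters from RefSeq (GRCm38.p6), where 3 of 6 genes looked up were listed. Scripts were tested on simulated counts. Scipy 1.17.1, numpy 2.4.6 and pandas 2.3.3 were used.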

Additional observations from a re-analysis of the deposited data

Results flagged for a closer look

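Of 31 genes examined (the 24 named for their KO to WT ratio, Ctnnb1, the 4 Gsdmc and Apol10a genes, Car4 and Krt19), 1 had intervals on opposite sides of 0 in members and in absorptive-high or mitotic cells. Gip had a log2 ratio KO to WT of 3.96 (3.65 to 4.30) in members, where it was at 10.2 and 160 CPM, and of -1.19 (-1.70 to -0.70) in absorptive-high cells, where it was at 18.7 and 8.17 CPM. Each group was 1 matrix, and the difference between the cell classes was not tested. Of the Gip UMIs of the KO members 95.8% came from 5 cells.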

How the results depend on the processing

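No paired analysis was possible because each group was 1 pooled matrix in which no barcode belonged to a labelled sample, and for the same reason no replicate could be left out. The log2 ratio of member shares kept its sign under every alternative run, all of which kept Apol10a in the trio. It was -0.27 as reported, -1.05 with the trio limit at 0.06%, -0.46 without cells that met a goblet, tuft or enteroendocrine limit, -1.77 with barcodes thinned to 1500 UMIs and -0.66 thinned to 6000. Gsdmc2 and Gsdmc4 alone met the trio limits in 275 members of 6847 WT cells and 234 members of 4678 KO cells, the larger share in KO. This count needs 3 UMIs and was made without thinning. The KO cells were deeper, with a median of 12559 UMIs against 6584 in WT. With genes of at least 1 UMI admitted, 114 genes were at least 2-fold higher in KO members and 2201 lower, and the median of the apolipoprotein L list turned to 0.15. Over members with 6000 to 14000 UMIs the hydrolase median turned from -0.66 to 0.013. Over members with a Gsdmc2 or Gsdmc4 UMI the ratios of Saa1 (-0.42) and Gsdmc4 (-0.34) turned negative, over members with an absorptive share under 0.5% that of Gsdmc4 was -0.0061, and without cells of other lineages that of Gip was -0.32. The cause was not tested. The alternatives with thinning to 6000, matched depth, a gasdermin UMI or the absorptive share were added after seeing the data. Of the alternative values, 72 of shares, counts, Ctnnb1 and the 3 main lists and 534 of single genes and other lists stayed within the interval of the reported value (for list medians its order-statistic interval over genes, for counts within 1.5 times), while 6 and 91 lay outside it, and another 1 and 5 had the opposite sign to a reported value whose interval was clear of 0. KO members were deeper, so genes near the limit of 100 UMIs were the least precise.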

Other observations

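Enteroendocrine hormones were present in single members. Sst UMIs in members came to 99.4% from 5 cells in each matrix, and 1 WT cell held 304 and 1 KO cell 548 of them. Below the level required for naming, Gcg (1.82 to 32.2 CPM), Pyy (0.973 to 13.1) and Ghrl (8.76 to 24.7) were also at least 2-fold higher in KO members, and they were picked out after their values were seen. Some noncoding transcripts, chosen in the same way, were far lower in KO members. Gm42418, which overlaps ribosomal RNA sequence, went from 14445 to 1258 CPM, and Kcnq1ot1, the antisense transcript of an imprinted locus, from 13.5 to 1.35.

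Of 24 cell death effectors tested 5 (20.8%) were lower in KO members and none higher, near the 17% of all genes that were lower, with a median of -0.52 against -0.34 over all genes. Nlrp6, an inflammasome sensor of the epithelium, went from 279 to 115 CPM (-1.28). Against mitotic cells 4 of 23 of these genes were higher in members and none lower, where 4.47% of all genes were higher and 8.67% lower.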
